A study of Mus musculus with 6 samples.

Results

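The 10 genes described here encode the receptors of tumour necrosis factor (TNF) and the proteins that turn a receptor signal into survival, apoptosis or necroptosis: Tnfrsf1a, Tnfrsf1b, Tradd, Fadd, Ripk1, Ripk3, Mlkl, Casp8, Cflar and Xiap. They were taken by gene symbol from the deposited expression table, and each matched 1 row, so they are 10 of the 19086 genes listed. The table holds RNA sequencing of haematopoietic stem cells (HSCs) of the C57BL/6 strain, gated as CD150+ CD48- within the LSK fraction of bone marrow. Both groups were taken from lethally irradiated CD45.1 recipients 2 months after a transplant of CD45.2 marrow, with 3 libraries from Zfp521fl/fl donors, the control genotype carrying the floxed gene, and 3 from Zfp521-CKO donors, in which the zinc finger gene Zfp521 is meant to be deleted. No source used here gives the Cre driver, the age of the mice, the number of recipients behind a library or a donor marker in the sort. The p-values therefore cover only how these libraries vary, and that variation may be technical. The comparison asks which genes differ in HSCs without Zfp521, under a series title about HSC quiescence and maintenance under stress.

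TNF binds a receptor with a death domain, TNFR1, encoded by Tnfrsf1a, and a receptor without one, TNFR2, encoded by Tnfrsf1b. On TNFR1 the adaptor TRADD and the kinase RIPK1 assemble a ubiquitin-rich complex that activates NF-kB. A later cytosolic complex with the adaptor FADD and caspase-8 can start apoptosis, which cFLIP, encoded by Cflar, restrains. When caspase-8 is not active, RIPK1 can engage the kinase RIPK3, which phosphorylates MLKL, and MLKL then permeabilises the plasma membrane, the death form called necroptosis. XIAP is a ubiquitin ligase that binds and inhibits caspases. In mouse bone marrow, loss of Fadd, Casp8 or Ripk1 is known to expose haematopoietic cells to RIPK3- and MLKL-dependent death, and TNF is known to act on HSCs under inflammatory stress.

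The targeted gene went against its labels. Zfp521 had 0, 3 and 0 reads in controls 1, 2 and 3, whereas the library labelled Zfp521-CKO replicate 1 had 1519, replicate 2 had 126 and replicate 3 had 0 (exact permutation test, two-sided p = 0.4, n = 3 each, where the smallest possible p is 0.1). Which part of the gene is deleted and which part was counted are not given, so every direction below is that of the libraries as labelled, and these are called CKO-labelled 1, 2 and 3. Outside 75 rows described in the methods, the libraries held 3116422 to 55775868 reads, a range of 17.9-fold, with CKO-labelled 1 and 2 the deepest and CKO-labelled 3 the shallowest. Values are log2(normalized count + 1), and 3 reads are a value of 0.57 in the deepest library, 2.07 to 2.80 in the controls and 3.96 in the shallowest. The sorted cell type was checked on 10 HSC markers, of which 4 had reads in each control, against 10, 9 and 7 in CKO-labelled 1, 2 and 3. The sort marker gene Slamf1 had reads in CKO-labelled 1 alone, and Procr in the 3 CKO-labelled libraries. Ly6a, which encodes the Sca-1 of the LSK gate, had reads in all libraries and was highest in control 2 (14.11), where the HSC markers took their largest share of reads (0.135%). The 10 neutrophil markers, led by S100a8, had reads in every library, and their share of reads was 12.7% to 15.2% in controls against 0.036%, 1.46% and 12.9% in CKO-labelled 1, 2 and 3.

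The promoters of 3 of the genes are shown, because Cflar and Tnfrsf1a were the 2 members whose groups did not overlap, and Casp8 lies next to Cflar with no protein-coding gene between them in RefSeq and had another pattern across libraries. Each line gives the 250 bases before the RefSeq start on build GRCm38.p6, on the sense (plus) strand, while the deposited values refer to build mm9. Capitals mark matches, on either strand, to 4 motifs: GGGNNNNNCC of NF-kB, TTCNNNGAA of STAT factors, GAAANNGAAA of interferon regulatory factors, and the TATA box TATAAA.
Cflar, chr1:58711241-58711490: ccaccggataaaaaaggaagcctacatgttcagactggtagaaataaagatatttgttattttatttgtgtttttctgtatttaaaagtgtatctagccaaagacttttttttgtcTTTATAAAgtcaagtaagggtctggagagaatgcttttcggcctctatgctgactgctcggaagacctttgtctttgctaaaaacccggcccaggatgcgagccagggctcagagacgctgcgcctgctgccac
Casp8, chr1:58802252-58802501: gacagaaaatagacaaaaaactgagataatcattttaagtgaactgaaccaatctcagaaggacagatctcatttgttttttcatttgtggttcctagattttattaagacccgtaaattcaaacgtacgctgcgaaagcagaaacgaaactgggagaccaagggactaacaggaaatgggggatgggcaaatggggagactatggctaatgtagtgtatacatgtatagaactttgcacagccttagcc
Tnfrsf1a, chr6:125349473-125349722: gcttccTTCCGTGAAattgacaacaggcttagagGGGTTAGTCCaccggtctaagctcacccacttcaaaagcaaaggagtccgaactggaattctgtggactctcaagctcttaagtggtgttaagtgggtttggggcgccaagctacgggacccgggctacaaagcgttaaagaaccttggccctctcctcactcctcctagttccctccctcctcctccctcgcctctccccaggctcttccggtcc
The Cflar window held 2 overlapping TATAAA matches, 1 on each strand, a motif found in 12.3% of the 32536 promoter windows of this length. The Tnfrsf1a window held 1 match to the NF-kB motif, which 46.0% of all windows hold, and 1 to TTCNNNGAA, which 7.04% hold. The Casp8 window held none of the 4, and GAAANNGAAA was in 2.98% of all windows and in none of these 3. These are letters in a window and not tested sites.

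Between the genotypes as labelled, 9 of the 10 genes had a higher mean in the CKO-labelled libraries, as did 73.6% of all genes tested, and Ripk1 a lower one, but none passed the test. With limma and Benjamini-Hochberg adjustment over 16436 genes, 0 of the 10 passed an adjusted p of 0.05 (the lowest was 0.61), and without adjustment 0 passed either. Over all genes tested, 0 (0%) passed the adjusted threshold and 836 (5.09%) were higher at an unadjusted p under 0.05. On recovered reads, limma with voom weights called 0 of the 10, and 4 (Tnfrsf1a, Tradd, Fadd and Cflar) were higher at an unadjusted p under 0.05, beside 14.4% of all genes in that fit. Groups did not overlap, with the CKO-labelled libraries higher, for 2 of 10 genes, against 1178 of all genes tested (7.17%), and for 0 of 10 with these libraries lower, against 337 (2.05%). The median of the 10 differences was 3.22 log2 units, against 1.63 over all genes tested and 0.03 over the 3140 genes with reads in all 6 libraries, a group that holds 1 of the 10, Cflar. That shift of the median gene was 1.30 with each library scaled to the same total, 1.17 when centred on genes with reads in all libraries, and -0.02 after quantile normalization. The members' median was 2.44, 2.77 and 1.28 under the same 3 scalings, and 2.31 to 5.27 when 1 library was left out. In bulk samples, fewer cells of a type and less RNA per cell cannot be told apart.

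**Figure D1:**
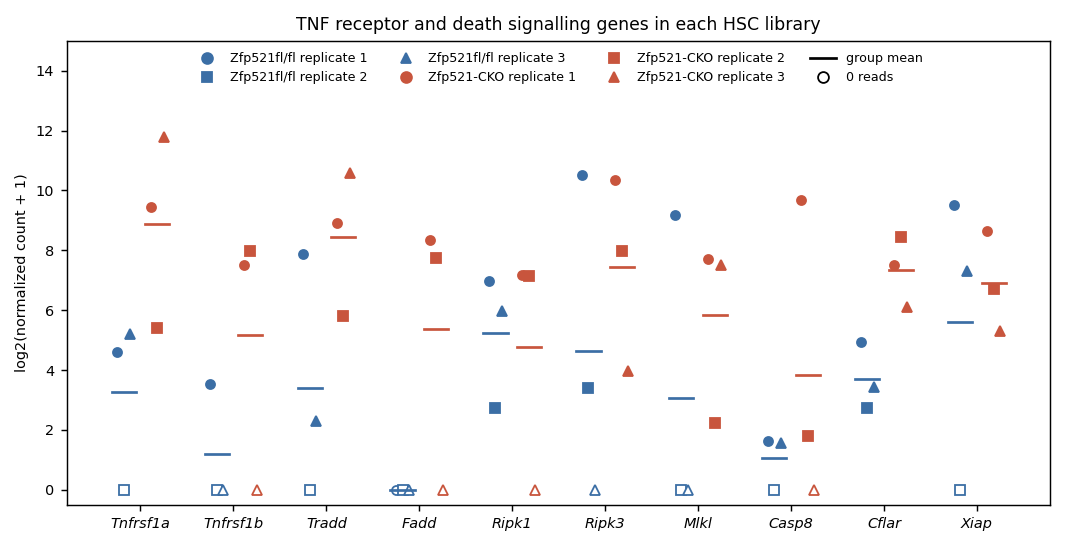
Deposited log2(normalized count + 1) of the 10 genes (y axis) in each of the 6 HSC libraries. Blue symbols are the 3 Zfp521fl/fl libraries, red symbols the 3 libraries labelled Zfp521-CKO, shapes give the replicate, open symbols have 0 reads and bars are group means. Cflar is the member with reads in all 6 libraries, and the open symbols number 7 in control 2, 4 in control 3 and 4 in CKO-labelled 3.

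Reads of these genes were spread unevenly over the libraries. All 10 had reads in CKO-labelled 1 and in CKO-labelled 2, and 6 had reads in CKO-labelled 3. In controls 1, 2 and 3 the number with reads was 9, 3 and 6. Control 2 was not the shallowest library, with 7301768 reads, yet its 3 detected members, Cflar, Ripk1 and Ripk3, came to 11 reads in all. As a sum, the 10 genes took 284, 1.51 and 18.4 reads per 1000000 in controls 1, 2 and 3, and 526, 149 and 351 in CKO-labelled 1, 2 and 3. Control 1 thus lay between CKO-labelled 2 and 3 on this measure. Over the whole table, the share of genes with reads was 52.9%, 32.1% and 39.2% in the controls, beside 87.4%, 74.9% and 33.8% in the CKO-labelled libraries, an order that the members followed, apart from a tie of CKO-labelled 1 and 2 and a tie of control 3 and CKO-labelled 3.

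**Figure D2:**
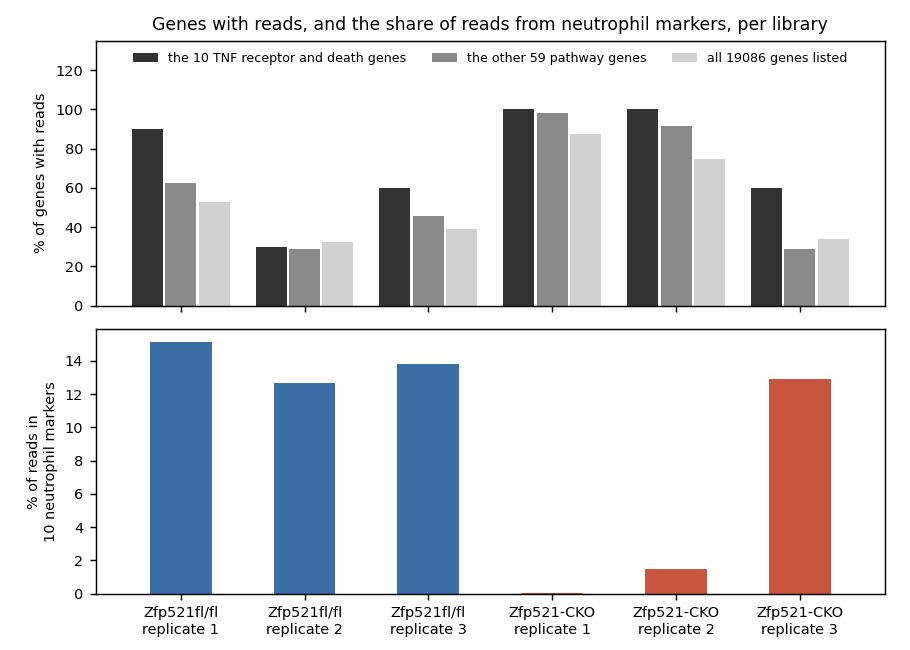
Upper panel: percent of genes with at least 1 read in each library (y axis) for the 10 genes, the other 59 genes of the pathway lists and all 19086 genes listed. Lower panel: percent of reads in 10 neutrophil markers, with controls in blue and CKO-labelled libraries in red. All groups of genes were detected most often in CKO-labelled 1 and 2, the libraries with the most reads and the smallest neutrophil share.

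Of the receptors, Tnfrsf1a (ENSMUSG00000030341), the death-domain receptor, was at 4.61, 0 and 5.20 in controls 1, 2 and 3 and at 9.43, 5.41 and 11.77 in CKO-labelled 1, 2 and 3. The groups did not overlap, and the gap between them was narrow. The nearest libraries were CKO-labelled 2, with 133 reads or 4.37 reads per 1000000 (95% exact Poisson interval 3.66 to 5.18), and control 3, with 18 reads or 2.43 (1.44 to 3.84). These intervals overlap, and they cover counting error only, since reads without molecular identifiers are not independent molecules. The mean was 3.27 ± 2.85 in the controls and 8.87 ± 3.22 in the CKO-labelled libraries (SD, n = 3 each), a difference of 5.60 ± 2.62 (SE; limma adjusted p = 0.61, unadjusted p = 0.055; two-sided exact permutation p = 0.1, the smallest possible). Groups of this size without overlap always give that permutation p, so it adds nothing to the lack of overlap. The difference was positive under every scaling tried, while the groups overlapped after quantile normalization and after centring. The highest value came from the shallowest library, CKO-labelled 3, where 719 reads gave 231 per 1000000 (214 to 248).

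Tnfrsf1b (ENSMUSG00000028599), which encodes the receptor without a death domain, had another distribution. It was at 3.54, 0 and 0 in controls 1, 2 and 3 and at 7.52, 7.98 and 0 in CKO-labelled 1, 2 and 3. The groups overlapped because of the third CKO-labelled library, which had 719 reads of Tnfrsf1a and none of Tnfrsf1b. The floor of 3 reads put a count of 0 there at 0.963 per 1000000 (exact Poisson upper limit 1.18), whereas CKO-labelled 1 and 2 held 20.3 (19.1 to 21.5) and 26.5 (24.7 to 28.4). At the depth of the shallowest library those rates would be 63.2 and 82.7 reads, where none was counted. The difference was 3.99 ± 2.81 (SE; limma adjusted p = 0.67, n = 3 each).

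Among the adaptors, Tradd (ENSMUSG00000031887), which binds the death domain of TNFR1, followed Tnfrsf1a in its order over the CKO-labelled libraries. Its values were 7.89, 0 and 2.31 in the controls and 8.92, 5.82 and 10.58 in CKO-labelled 1, 2 and 3. Control 1 lay above CKO-labelled 2, so the groups overlapped. The means were 3.40 ± 4.05 and 8.44 ± 2.41 (SD, n = 3 each), and the difference was 5.04 ± 2.72 (SE; limma adjusted p = 0.61).

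Fadd (ENSMUSG00000031077), the adaptor that recruits caspase-8, had 0 reads in all 3 controls. It was at 8.35 and 7.75 in CKO-labelled 1 and 2, with 2031 and 686 reads, and at 0 in CKO-labelled 3. The floor of 3 reads put a zero in a control at 0.283 to 0.411 reads per 1000000, and the exact Poisson upper limits were 0.348 to 0.505. Against the highest of these floors, the 36.4 reads per 1000000 of CKO-labelled 1 were 88.6-fold higher and the 22.5 of CKO-labelled 2 were 54.8-fold higher. These folds depend on the floor chosen. At the depth of CKO-labelled 3, the same rates would be 113 and 70.2 reads, where none was counted. The fitted difference was 5.37 ± 2.65 (SE; limma adjusted p = 0.61) and depends on the value given to 0 reads. Without CKO-labelled 3 it was 8.05 and passed the threshold (limma adjusted p = 0.010), in a fit that called 2476 of 16436 genes higher (15.1%). With weights per library it was 7.32 (limma adjusted p = 0.047), where 1632 genes were called higher (9.93%). Absence from the controls was not particular to Fadd, since 4688 of the genes tested (28.5%) had no reads in any control.

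Ripk1 (ENSMUSG00000021408), the kinase shared by the survival and death complexes, had the smallest difference among the 10 as deposited. Its values were 6.97, 2.74 and 5.97 in controls 1, 2 and 3 and 7.18, 7.15 and 0 in CKO-labelled 1, 2 and 3. The first 2 CKO-labelled libraries lay above every control and the third below. As rates, CKO-labelled 1 and 2 held 16.1 (15.1 to 17.2) and 14.8 (13.5 to 16.3) reads per 1000000, and control 1 held 11.1 (9.14 to 13.2). The difference of -0.45 ± 2.82 (SE; limma adjusted p = 0.96, n = 3 each) changed sign when CKO-labelled 3 (1.94) or control 1 (0.42) was left out, and with libraries scaled to the same total (0.54). After quantile normalization it was -3.51. No direction is therefore given for it.

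The necroptosis kinase gene Ripk3 (ENSMUSG00000022221) varied within each group more than between them. It was at 10.50, 3.39 and 0 in controls 1, 2 and 3 and at 10.33, 7.98 and 3.96 in CKO-labelled 1, 2 and 3. Control 1 and CKO-labelled 1 were close, with 129 (122 to 136) and 144 (141 to 147) reads per 1000000, and the other controls had 5 and 0 reads. The group means were 4.63 ± 5.36 and 7.43 ± 3.22 (SD, n = 3 each), with a difference of 2.80 ± 3.06 (SE; limma adjusted p = 0.69) that was 5.73 without control 1 and 0.48 without control 3.

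Mlkl (ENSMUSG00000012519), the membrane-permeabilising effector, was at 9.19, 0 and 0 in controls 1, 2 and 3 and at 7.72, 2.24 and 7.50 in CKO-labelled 1, 2 and 3. The highest library was a control, with 51.9 reads per 1000000 (47.6 to 56.4), and the groups overlapped. CKO-labelled 2, with 30440892 reads, had only 12 of Mlkl, and in the far shallower CKO-labelled 3, 37 were counted. The difference was 2.76 ± 3.17 (SE; limma adjusted p = 0.70, n = 3 each), and it was 5.82 without control 1. Ripk3 and Mlkl were thus both high in control 1 and CKO-labelled 1 and parted in CKO-labelled 2 and 3.

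Casp8 (ENSMUSG00000026029), the initiator caspase, had reads above a handful in 1 library. It was at 1.64, 0 and 1.58 in the controls, from 2, 0 and 1 reads, and at 9.67, 1.80 and 0 in CKO-labelled 1, 2 and 3, from 5053, 8 and 0 reads. The rate was 90.6 per 1000000 (88.1 to 93.1) in CKO-labelled 1 and 0.263 (0.113 to 0.518) in CKO-labelled 2, although these were the 2 deepest libraries. The difference of 2.75 ± 2.71 (SE; limma adjusted p = 0.67, n = 3 each) rests on CKO-labelled 1, and without it the difference was -0.17.

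Cflar (ENSMUSG00000026031), which encodes the caspase-8-like inhibitor cFLIP, was the member seen in every library. It was at 4.94, 2.74 and 3.45 in controls 1, 2 and 3 and at 7.53, 8.43 and 6.11 in CKO-labelled 1, 2 and 3. The 3 CKO-labelled libraries lay above the 3 controls, as did those of 264 of the 3140 genes with reads in all 6 libraries (8.41%). In reads this was 28, 3 and 5 against 1140, 1104 and 14. The nearest libraries were CKO-labelled 3 at 4.49 reads per 1000000 (2.46 to 7.54) and control 1 at 2.64 (1.76 to 3.82), whose intervals overlap. The means were 3.71 ± 1.12 and 7.36 ± 1.17 (SD, n = 3 each), the smallest spread within the CKO-labelled libraries among the 10 genes. The difference was 3.64 ± 2.31 (SE; limma adjusted p = 0.63, unadjusted p = 0.14; two-sided exact permutation p = 0.1, the smallest possible). That permutation p follows from the lack of overlap and adds nothing to it. The difference was 3.11 to 4.27 when 1 library was left out, and 0.79 after quantile normalization, where the groups overlapped.

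Xiap (ENSMUSG00000025860), the caspase inhibitor, was at 9.53, 0 and 7.30 in controls 1, 2 and 3 and at 8.64, 6.71 and 5.32 in CKO-labelled 1, 2 and 3. Control 1 was the highest library, with 65.6 reads per 1000000 (60.8 to 70.6), and the control without reads was the lowest. The rates of control 3 and CKO-labelled 2, 10.7 (8.45 to 13.3) and 10.9 (9.80 to 12.2), could not be told apart by their counts. The difference of 1.28 ± 2.79 (SE; limma adjusted p = 0.86, n = 3 each) was below the median of all genes tested, and it was -1.52 without control 2 and -0.43 after quantile normalization. The values of Cflar and Xiap, both inhibitors of caspase activity, thus did not order the libraries alike.

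**Figure D3:**
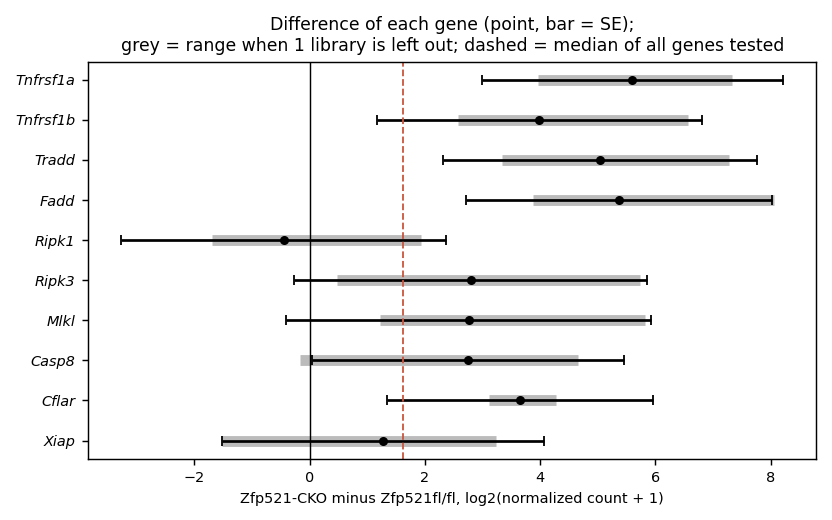
Difference of the group means (CKO-labelled minus control, x axis, log2(normalized count + 1)) for each of the 10 genes, with the limma standard error as a bar and the range obtained by leaving out 1 library in grey. The dashed line is the median of all genes tested, 1.63, and every standard error is between 2.31 and 3.17. The grey ranges of Ripk1, Casp8 and Xiap cross 0.

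Levels of different members can be set side by side only per length. Reads were divided by the merged exon length of GENCODE M21, an annotation of another build than the one counted, so the order is approximate, and long merged exons (12669 bases for Cflar) lower a value. In CKO-labelled 1, Ripk3 led with 62.7 reads per kilobase per 1000000, before Casp8 (31.3), Tnfrsf1a (29.7) and Tradd (28.9). Ripk3 also led in CKO-labelled 2 at 11.6, before Tnfrsf1b (6.95) and Fadd (5.77). In CKO-labelled 3 the order was another, with Tnfrsf1a at 89.0 and Tradd at 54.0 per kilobase and then Mlkl at 5.16. In control 1 the necroptosis pair led, Ripk3 at 56.2 and Mlkl at 22.5, followed by Tradd at 11.2. In control 3 Xiap was highest at 1.13 and Tnfrsf1a next at 0.938, and in control 2 no member passed 0.299. Cflar lay at or below 2.86 per kilobase in every library.

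Genes with reads in the same libraries as a member and the nearest log2 values over all 6 were looked up for the 6 members with reads in at least 5 libraries. Tnfrsf1a was closest to Letm1, at a mean absolute difference of 0.72 log2 units, and to Rps19bp1 (0.74), among 893 genes. Tradd was closest to Hemgn (0.33) and Add1 (0.38) among the same number. Ripk1 was closest to Gm20498 (0.30) and Atf7 (0.35) among 815 genes, and Ripk3 to Fundc1 (0.46) and Atp6ap2 (0.53) among 437. For Cflar these were Map4 (0.72), which lies in the 75 rows set apart in the methods, and Rasa4 (0.81), among 3139 genes. For Xiap they were Mapkap1 (0.63) and Clk4 (0.66), among 893 genes. Only Tnfrsf1a, Tradd and Xiap had reads in the same libraries as another member, and none of them was among another's 2 nearest genes. For Ripk1, Ripk3 and Cflar no other member could be found by this rule.

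The wider pathway was read from 5 lists, of which 59 of 63 genes matched a row. With limma, 0 of the 59 passed an adjusted p of 0.05, and 1 was higher at an unadjusted p under 0.05, beside 5.09% of all genes tested. A positive difference was found for 50 (beside 73.6% of all genes tested) and a negative one for 9, with a median of 2.28 against 1.63 over all genes tested. Groups did not overlap for 3 of the 59 with the CKO-labelled libraries higher, 5.08% beside 7.17% of all genes, and for 1 of the 59 with them lower, beside 2.05% of all genes. Of the 59, 15 had no reads in any control (25.4%, beside 28.5% of all genes tested). Without CKO-labelled 3, 13 of the 59 passed the threshold, all with higher values in the CKO-labelled libraries, beside 2476 of all genes tested (15.1%).

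Among the 9 other death ligands and receptors measured, all had positive differences and 6 had no reads in any control. Tnf, which encodes the ligand of both receptors, had 0 reads in every control and in CKO-labelled 3, and was at 7.01 and 8.85 in CKO-labelled 1 and 2, from 796 and 1474 reads. Tnfrsf10b, the mouse TRAIL receptor, was at 6.11 and 3.46 in CKO-labelled 1 and 2, and Tnfrsf22, a mouse TRAIL decoy receptor, at 7.70 and 4.16, both with no reads in the other 4 libraries. The limma adjusted p was 0.61, 0.62 and 0.61. Not all genes of this list kept to those 2 libraries: Ltbr, the lymphotoxin beta receptor, had its highest value in control 3 (10.97, 1014 reads) and was named after its values were seen.

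Of the 18 ubiquitin ligases and kinases that act at the receptor, 17 had positive differences. Sharpin, a subunit of the linear ubiquitin chain assembly complex, had 0 reads in the controls and was at 8.78, 8.07 and 11.15 in CKO-labelled 1, 2 and 3, from 2729, 860 and 468 reads. It was the gene of the lists with the smallest p (limma unadjusted p = 0.0025, adjusted p = 0.61), and its groups did not overlap. Traf2, the adaptor that brings ubiquitin ligases to the receptor, was at 2.07, 0 and 8.86 in the controls and at 9.67, 8.04 and 9.81 in CKO-labelled 1, 2 and 3. Tbk1, a kinase that restrains RIPK1, had no reads in the controls and was at 8.17, 9.36 and 0. Ikbkb, the NF-kB activating kinase IKK2, went the other way without overlap, at 10.03, 10.15 and 11.55 in the controls against 9.21, 8.88 and 0 in the CKO-labelled libraries (limma adjusted p = 0.61 for each of these 4), and was named after its values were seen.

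Of the 7 deubiquitinases and brakes, 6 had positive differences. Tnfaip3, which encodes the NF-kB brake A20, was at 4.47, 0 and 0 in the controls and at 6.51, 5.18 and 10.19 in CKO-labelled 1, 2 and 3, without overlap (difference 5.80 ± 2.67, SE; limma adjusted p = 0.61). Its highest library was CKO-labelled 3, as for Tnfrsf1a and Tradd. Spata2, the bridge of the deubiquitinase CYLD to its complex, was at 9.04, 2.24 and 0 in the CKO-labelled libraries with no reads in the controls, and Tnip2, an A20-binding protein, was at 2.07, 0 and 0 against 8.74, 5.47 and 0.

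Among the 12 caspase and mitochondrial effectors, 10 had positive differences and 4 had reads in all libraries. Xaf1, an antagonist of XIAP, was at 2.39, 3.39 and 2.80 in the controls, from 4, 5 and 3 reads, and at 10.01, 10.10 and 3.42 in CKO-labelled 1, 2 and 3, from 6401, 3527 and 2 reads. Its groups did not overlap by log2 value, but 2 reads of the shallowest library set the lowest CKO-labelled value (limma adjusted p = 0.61). Casp9, the initiator caspase of the mitochondrial route, had no reads in the controls or in CKO-labelled 3 and was at 6.03 and 7.76 in CKO-labelled 1 and 2. Diablo, which encodes the XIAP antagonist SMAC, was at 2.88, 0 and 0 against 10.68, 7.98 and 0.

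Of the 13 necroptosis and pyroptosis partners, 8 had positive and 5 negative differences, with a median of 1.56. Zbp1, a nucleic acid sensor that binds RIPK3, had no reads in the controls or in CKO-labelled 3 and was at 7.30 and 6.36 in CKO-labelled 1 and 2. Gsdmd, the pore-forming protein of pyroptosis, was at 6.62, 0 and 0 against 9.30, 9.38 and 0. Cdc37, a chaperone of kinases that include RIPK3, was at 10.66, 3.63 and 0 against 11.64, 10.66 and 3.42. The limma adjusted p was 0.61 for Zbp1 and 0.67 for the other two.

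**Figure D4:**
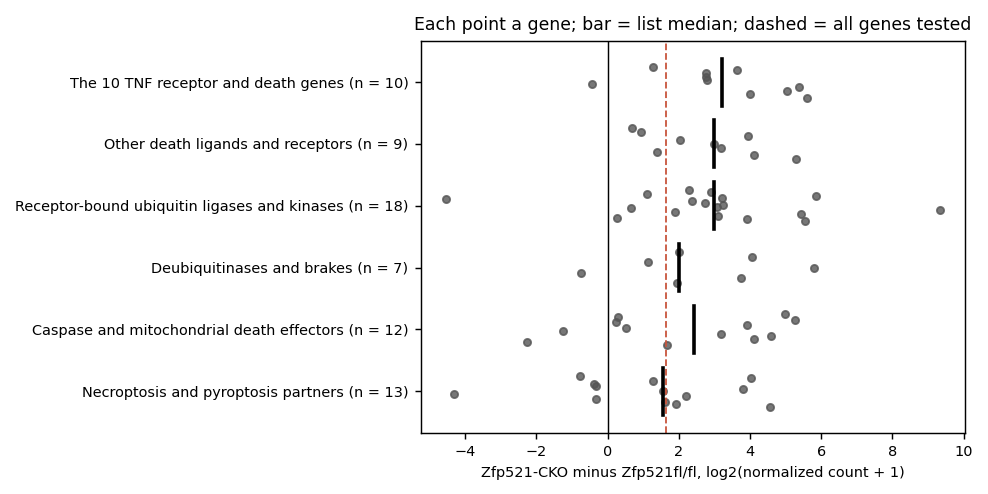
Difference of the group means (CKO-labelled minus control, x axis, log2(normalized count + 1)) of each gene tested, by list, with the list median as a black bar and the median of all genes tested, 1.63, as a dashed line. The median of the 10 members is 3.22 and those of the 5 lists lie at 1.56 or above, and no gene shown passed the adjusted threshold.

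The neutrophil share is set beside these values, and no link was tested. CKO-labelled 1 and 2, where all 10 members were detected, had the smallest shares and were also the deepest libraries. Control 1 had the largest share (15.2%), and there 9 members had reads and Mlkl and Xiap were at their highest. Ripk3 was highest in control 1 by log2 value (10.50, beside 10.33 in CKO-labelled 1), but its share of reads was higher in CKO-labelled 1. All 10 neutrophil markers had negative differences, each past 0.05 without adjustment (limma adjusted p = 0.61 for each). Of all 16436 genes tested, 4341 had negative differences and 81 were lower at an unadjusted limma p under 0.05. CKO-labelled 3 had a share like the controls, and there Tnfrsf1b, Fadd, Ripk1 and Casp8 had no reads, while Tnfrsf1a and Tradd were at their highest. The 7 monocyte and macrophage markers outside the 75 rows took 0.825%, 0.820% and 0.349% of reads in the controls and 0.111%, 0.275% and 0.842% in CKO-labelled 1, 2 and 3, and of all 8 such markers 7 had negative differences. The other one, Cd68, had reads in CKO-labelled 1 alone. B and T cell markers matched 3 rows in all. The B cell markers Cd79a and Cd79b had reads in CKO-labelled 1 alone, with 4 and 7631, and the T cell marker Cd3d had reads in control 3 alone, with 927. The part of these cells, of depth and of single libraries in the members' values was not tested.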

How the data were processed

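Libraries followed Illumina's protocols, per the labels. Bowtie, DESeq2 1.26.0 and the build mm9 appear, with no role stated, per the submitters' processing notes. The role of each tool, the counter, the annotation and the filters are otherwise not given in the sources used here. Although named as FPKM, the authors' deposited log2 values are log2(reads divided by a factor per library, plus 1): of 61139 values above 0, 99.7% were whole reads within 0.001 read. The other 213 lay in 1 run of 75 rows, which holds no member and was left out of read totals. Read counts in the text were recovered in this way.

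limma 3.58.1 in R 4.3.3 (lmFit, eBayes with a trend, two-sided, genotype only, all 6 libraries) was fitted to 16436 genes with a mean normalized count of at least 1, with Benjamini-Hochberg adjustment and a threshold of 0.05. All 10 members passed this filter. The fit was also run on simulated counts. These were drawn with the same spread setting for every gene, unlike these libraries, and no conclusion rests on them. Poisson intervals are exact (95%), and the floor of each library is set at 3 reads. Promoters are from RefSeq (GRCm38.p6), matched by symbol for 9 of 10 members. Older symbols were matched through RefSeq names (Gsdme as Dfna5), and 4 pathway genes had no match.

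The members, the 5 pathway lists, the cell type markers and the alternatives were chosen with earlier results of these data known. Named genes are the 10 members, Zfp521, the 3 genes with the smallest p in each pathway list, and the 2 genes nearest to each widely detected member. The marker genes S100a8, Slamf1, Procr, Ly6a, Cd68, Cd79a, Cd79b and Cd3d were named after their values were seen. Of 48 marker entries in 7 lists, 39 matched. Besides those given in the report, HSC markers took 0.0025% to 0.135% of reads in the controls and 0.024% to 0.112% in the libraries labelled Zfp521-CKO. All 10 HSC markers had positive differences, beside 73.6% of all genes tested, with a median of 3.70. For 2 of these 10 the groups did not overlap, with the CKO-labelled libraries higher, beside 7.17% of all genes tested. Megakaryocyte markers took 0.0081% to 0.0892% and 0% to 0.0396%, and erythroid markers 0.0268% to 0.189% and 0.0092% to 0.0898%.

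Alternatives were a pseudocount of 0.1, the filter dropped or raised to a mean of 5, only genes with reads in all 6 libraries, 4 other scalings, weights per library, voom on recovered reads, the 75 rows left out, the replicate number as a block, and each library left out in turn.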

Additional observations from a re-analysis of the deposited data

How the results depend on the processing

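Of the 10 members, 6 (Tnfrsf1a, Tnfrsf1b, Tradd, Fadd, Ripk3 and Mlkl) kept a positive difference under 17 of 17 alternatives and Cflar under 18 of 18, between 3.43 and 7.33 for Tnfrsf1a, 1.59 and 6.57 for Tnfrsf1b, 2.75 and 7.28 for Tradd, 2.89 and 8.05 for Fadd, 0.48 and 5.73 for Ripk3, 0.74 and 5.82 for Mlkl, and 0.79 and 4.36 for Cflar. The sign turned for Ripk1 with libraries scaled to a total of 1000000 (0.54), with weights per library (1.32) and when 1 library was left out (range -1.69 to 1.94), for Xiap after quantile normalization (-0.43) and when 1 library was left out (-1.52 to 3.24), and for Casp8 when 1 library was left out (-0.17 to 4.66). The number of members past the threshold was 0 as reported and 1, Fadd, with weights per library (7.32, limma adjusted p = 0.047), and it ranged from 0 to 1 when 1 library was left out, the 1 being Fadd without replicate 3 labelled Zfp521-CKO (8.05). Over all genes, weights per library called 1632 higher and 28 lower, of which 1294 had no reads in any control, quantile normalization 6 and 16, and voom 1 and 5 (Psmd12 higher, and Camp, Tmsb4x, S100a8, S100a9 and Malat1 lower, named after their values were seen). Leaving out 1 library gave 0 to 2476 higher and 0 to 33 lower, the highest from the fit without replicate 3 labelled Zfp521-CKO, and 1761 of those had no reads in any control. Of the 59 genes of the pathway lists, 6 passed the threshold with weights, where 9.93% of all genes were called higher. When 1 library was left out, 0 to 13 passed, the 13 from the fit without replicate 3 labelled Zfp521-CKO, which called 15.1% of all genes higher. The weights gave that library 0.24 and the others 0.82 to 2.11. The cause of these changes was not tested. With the replicate block the median of the members was 3.22 and 0 passed. Same-numbered libraries had deviations correlated at 0.12, -0.003 and -0.03 over 3065 genes, and not every library correlated best with its own number, so the numbers are not read as pairs. The value of 1 read was largest in replicate 3 labelled Zfp521-CKO, at 4.86 normalized counts, and the part of depth in the members' values was not tested.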
